A study of Mus musculus with 9 samples.

Results

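The genes described here are Selenop, its antisense neighbour Ccdc152, and the selenoenzyme genes Gpx1, Gpx3, Gpx4 and Txnrd1, in C2C12 myotubes. C2C12 is a mouse myoblast line whose cells fuse into multinucleated myotubes on differentiation. These genes were chosen by their levels with dexamethasone against vehicle, with earlier results of the same libraries known, and were found by gene symbol. All 6 were present among the 10716 genes of the deposited table. RNA sequencing covered 9 libraries in 3 groups of 3. One group received dexamethasone, a synthetic glucocorticoid, at 50 µM together with THSG at 10 µM. Another received dexamethasone at 50 µM alone, and the third received vehicle, each for 24 h. THSG is given in the labels as an abbreviation only, no group received THSG alone, and nothing states that the libraries of a group came from separate cultures, so p-values measure only the spread between these libraries. Dexamethasone on myotubes is used as a culture model of muscle wasting, but wasting itself was not measured here. The comparison with added THSG addressed whether gene levels differed from those with dexamethasone alone.

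Selenoproteins carry selenocysteine, an amino acid written into the mRNA as UGA, a codon that otherwise ends translation. A hairpin in the 3′ untranslated region, the SECIS element, and its binding proteins recode the UGA. Selenop encodes a secreted protein that carries selenium in blood from the liver to other tissues. The glutathione peroxidases Gpx1 (cytosolic), Gpx3 (secreted) and Gpx4 (which reduces lipid hydroperoxides in membranes) and the thioredoxin reductase Txnrd1 each use selenocysteine in catalysis. Ccdc152 encodes a coiled-coil protein. In human liver cells, a transcript of CCDC152 that runs antisense to SELENOP mRNA has been described to lower SELENOP translation.

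The selenocysteine codons show how these genes differ in their use of selenium, so the coding sequence around the codon is given for each enzyme and, for Selenop, for its first and its 2 last codons. Sequences are from the transcript with the longest coding sequence in GENCODE M21 (build GRCm38), 5′ to 3′ on the coding strand. Capitals mark only the codon named on each line, and codons are counted from the start codon. The Selenop lines for codons 375 and 377 each hold the other of these selenocysteine codons in lower case.
Selenop, codon 59: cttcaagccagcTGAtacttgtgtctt
Selenop, codon 375: cagaccaggaagTGAaaatgacattca
Selenop, codon 377: aggaagtgaaaaTGAcattcaaac
Gpx1, codon 47: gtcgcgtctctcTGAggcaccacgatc
Gpx3, codon 73: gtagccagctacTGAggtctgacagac
Gpx4, codon 129: gtggcctcgcaaTGAggcaaaactgac
Txnrd1, codon 612: cagtctggctgcTGAggt

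The annotation marks 10 selenocysteine codons among the 380 codons of Selenop, from codon 59 to codon 377. Each of the 4 enzyme genes has 1. In Gpx1, Gpx3 and Gpx4 it lies well inside the coding sequence, with 154, 153 and 124 codons after it, whereas in Txnrd1 it is the last codon but 1 of 613. Ccdc152 has none.

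Selenop and Ccdc152 lie on chromosome 15 and are transcribed towards each other. In GENCODE M21 their last exons overlap by 439 bases on opposite strands, which is 15.4% of the exonic bases of Selenop and 32.3% of those of Ccdc152. The overlap falls in the last of the 9 exon blocks of Ccdc152, which is 680 bases long. Libraries were made with a stranded kit, per the labels, but whether counting used the strand is not given in the sources used here. Counted without strand, reads from the shared stretch could not be told apart, and both genes are therefore uncertain. With dexamethasone Selenop averaged 453 FPKM and Ccdc152 114, so Ccdc152 could be uncertain by more than its share of overlapping bases. That holds for its level, its fold changes and its ratio to Selenop. How much of the Ccdc152 level came from Selenop reads was not tested. The exons of Gpx1, Gpx3, Gpx4 and Txnrd1 overlap no exon of another annotated gene.

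**Figure D1:**
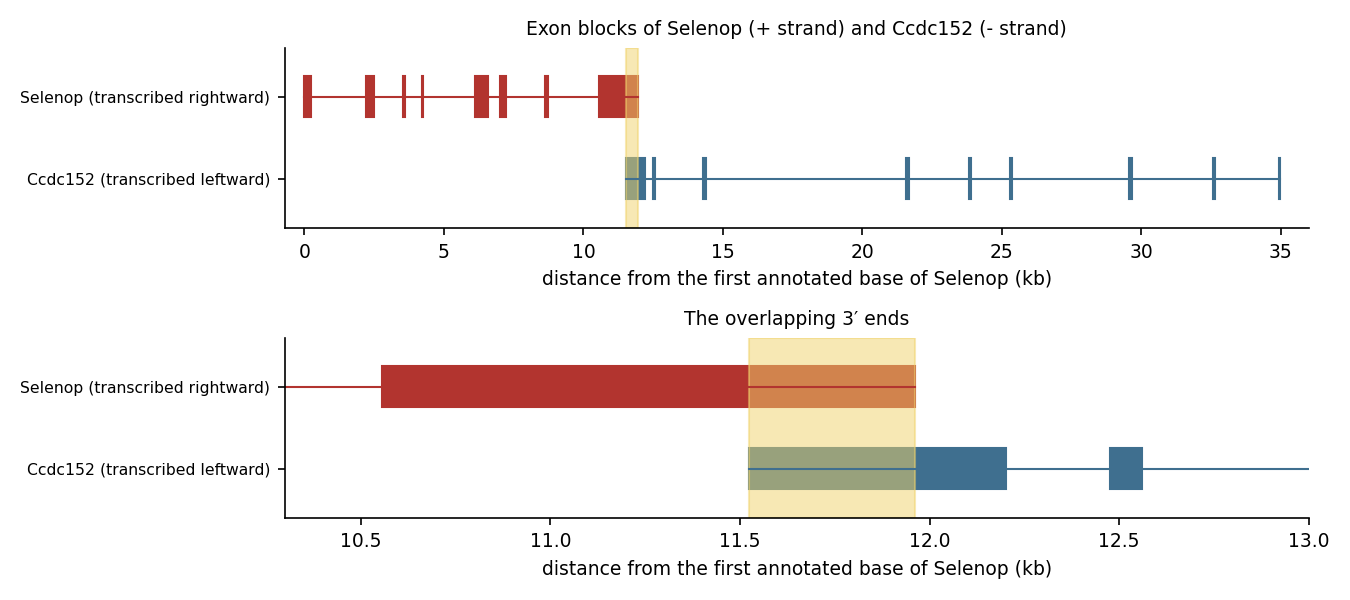
Exon blocks of Selenop (red, plus strand) and Ccdc152 (blue, minus strand) against the distance from the first annotated base of Selenop in kb, whole above and enlarged below. The shaded stretch is the 439 bases in which the last exons of both genes overlap.

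Promoter windows of the 3 genes with higher levels under dexamethasone are given because they stood high in the same 6 libraries. They are RefSeq windows of 300 bases around an annotated start in build GRCm38.p6, 5′ to 3′ on the gene's strand.
Selenop, chr15:3270727-3271026, plus strand: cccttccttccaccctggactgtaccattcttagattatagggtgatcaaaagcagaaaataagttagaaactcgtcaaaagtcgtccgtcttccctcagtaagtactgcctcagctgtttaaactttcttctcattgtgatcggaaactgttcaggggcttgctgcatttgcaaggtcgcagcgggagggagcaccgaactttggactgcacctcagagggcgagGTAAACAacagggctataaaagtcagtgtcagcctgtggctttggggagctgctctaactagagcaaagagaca
Ccdc152, chr15:3303477-3303776, minus strand: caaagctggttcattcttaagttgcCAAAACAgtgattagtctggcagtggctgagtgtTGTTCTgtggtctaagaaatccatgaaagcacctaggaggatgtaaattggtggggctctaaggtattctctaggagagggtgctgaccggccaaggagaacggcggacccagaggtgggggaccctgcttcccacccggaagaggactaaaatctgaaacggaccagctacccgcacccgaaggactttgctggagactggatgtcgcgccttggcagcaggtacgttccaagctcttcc
Gpx3, chr11:54902604-54902903, plus strand: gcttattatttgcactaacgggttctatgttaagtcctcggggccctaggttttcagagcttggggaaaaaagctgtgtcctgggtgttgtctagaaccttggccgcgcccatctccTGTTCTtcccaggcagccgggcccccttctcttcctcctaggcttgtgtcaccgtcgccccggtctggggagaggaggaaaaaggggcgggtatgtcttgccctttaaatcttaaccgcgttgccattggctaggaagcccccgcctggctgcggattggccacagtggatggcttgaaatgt

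Capitals mark matches to 4 motifs, searched on both strands, and no matches overlapped in these windows. They were a full glucocorticoid response element (GNACA and TGTNC with 3 bases between and 1 on either side, in 0.472% of all 32851 mouse promoter windows), a single arm of it (AGAACA, in 19%), the FOXO element (GTAAACA, in 3.65%) and a second FOXO-type element (CAAAACA, in 6.28%). The printed Selenop window held 1 FOXO element, starting 24 bases before the annotated start, and the 2 other annotated Selenop windows held none of the 4 motifs. Ccdc152 held 1 single arm and 1 second FOXO-type element, and Gpx3 held 1 single arm. Txnrd1, which overlapped with vehicle in level, also held 1 single arm in 1 of its 3 windows, and no other window of the 6 genes held any of the 4 motifs. No window of the 6 genes held the full glucocorticoid response element. These matches describe letters within 300 bases and say nothing of binding. The first annotated bases in GENCODE M21, 3268547 for Selenop and 54902453 for Gpx3, lie before all windows of these genes and were not searched. Also searched were the antioxidant response element core (TGAC and GC with 3 bases between, in 12.4% of windows), which matched 1 window of Txnrd1, and the TATA box (TATAAA, in 13.6%), which matched the printed Selenop window.

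Levels are mean FPKM ± SD of 3 libraries, where FPKM, the unit inferred for the deposited values, scales fragments to transcript length and library size. Fold changes are differences of log2(FPKM + 0.1) from a limma fit over all genes, and a gene is called when its adjusted p is under 0.05. The table lists only genes above 1 FPKM in every library, and read depth is unknown. Its libraries summed to between 400218 and 422379 FPKM, and libraries of a group correlated across genes with r between 0.991 and 0.994. Dexamethasone replicate 3 stood apart on the second principal component (7.73% of the variance) and had 14.0% of its FPKM in mitochondrially encoded genes, against 10.5% to 12% in the other 8 libraries. All 12 myotube markers were listed, with summed levels of 8190 to 8354 FPKM with dexamethasone plus THSG, 7610 to 8271 with dexamethasone and 7179 to 7780 with vehicle. Against vehicle, 7 of the 12 rose with dexamethasone plus THSG, where 12.1% of all genes were called higher. With dexamethasone 7 rose and 1 fell, where 12.7% of all genes were called higher and 20.9% lower. The creatine kinase gene Ckm averaged 93.7 FPKM with dexamethasone plus THSG and 90.6 with dexamethasone, against 54.1 with vehicle. Myog (397, 392 and 392 FPKM in the same order) and Acta1 (3251, 3103 and 3030 FPKM) were not called in either comparison. The marker that fell with dexamethasone was Des (log2 fold change -0.16). The part of these markers in the results below was not tested.

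The genes were proposed with their response to dexamethasone known, so their values against vehicle are descriptions without a test. Selenop had 465, 449 and 441 FPKM in the libraries with dexamethasone plus THSG, 445, 444 and 470.0 FPKM with dexamethasone, and 34.0, 30.2 and 33.3 FPKM with vehicle. All 6 libraries with dexamethasone lay far above the 3 vehicle libraries, and those with and without THSG were intermixed. The log2 fold change against vehicle was 3.79 (SE 0.0507) for dexamethasone plus THSG, a 13.8-fold difference, and 3.80 (SE 0.0507) for dexamethasone, a 13.9-fold difference. Among the listed genes, only 3 had a larger positive fold change with dexamethasone plus THSG, and 4 with dexamethasone. No listed gene is below 1 FPKM in any library, so this rank leaves out genes that rose from under that level.

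Ccdc152 had 105, 102 and 99.2 FPKM with dexamethasone plus THSG, 116, 112 and 114 FPKM with dexamethasone, and 6.48, 7.94 and 7.66 FPKM with vehicle. Its libraries separated into all 3 groups, with vehicle lowest and dexamethasone alone highest. Against vehicle the log2 fold change was 3.78 (SE 0.0675) for dexamethasone plus THSG and 3.94 (SE 0.0675) for dexamethasone. Within a library, Selenop stood at 4.38 to 4.45 times the level of Ccdc152 with dexamethasone plus THSG, 3.82 to 4.13 times with dexamethasone and 3.81 to 5.25 times with vehicle. The ratio thus lay between 3.81 and 5.25 in libraries that differed more than 10-fold in either gene, and what part the shared 439 bases have in this was not tested.

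Ghr, the growth hormone receptor gene, is the next protein-coding gene, 14.2 kb beyond Ccdc152 in GRCm38. It stood at 75.0 ± 2.7 FPKM with dexamethasone plus THSG, 72.1 ± 3.7 with dexamethasone and 77.2 ± 0.90 with vehicle, and was not called against vehicle with dexamethasone plus THSG (adjusted p = 0.569) or with dexamethasone (adjusted p = 0.133). No protein-coding gene is annotated on the other side of Selenop. Of the 5 neighbours listed beyond Ccdc152, 4 were in the table. Fbxo4, an F-box gene 661.9 kb away, fell (log2 fold change -0.30 with dexamethasone plus THSG and -0.41 with dexamethasone against vehicle), while AW549877 rose (0.40 with dexamethasone plus THSG and 0.48 with dexamethasone), as did the ketone body enzyme gene Oxct1 (0.28 in both).

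Gpx3, the secreted peroxidase, followed Selenop in direction but with a smaller step. It had 133, 128 and 127 FPKM with dexamethasone plus THSG, 130.0, 122 and 133 FPKM with dexamethasone, and 36.4, 30.8 and 32.9 FPKM with vehicle. Each library with dexamethasone lay above every vehicle library. The log2 fold change against vehicle was 1.96 (SE 0.0598) for dexamethasone plus THSG and 1.94 (SE 0.0598) for dexamethasone, differences of 3.88-fold with THSG added and 3.85-fold without.

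Gpx1, the cytosolic peroxidase, differed in the other direction. It had 80.3, 91.7 and 82.6 FPKM with dexamethasone plus THSG, 89.3, 77.7 and 91.0 FPKM with dexamethasone, and 144, 127 and 127 FPKM with vehicle. Every library with dexamethasone lay below every vehicle library. The log2 fold change was -0.64 (SE 0.0738) for dexamethasone plus THSG and -0.63 (SE 0.0738) for dexamethasone, levels of 0.640 times (dexamethasone plus THSG) and 0.648 times (dexamethasone) that with vehicle. As a result Gpx3 stood at 1.53 ± 0.13 times Gpx1 with dexamethasone plus THSG and 1.50 ± 0.068 times with dexamethasone, but at 0.251 ± 0.0088 times with vehicle.

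Both groups with dexamethasone overlapped with vehicle in Gpx4 and Txnrd1. Gpx4 had 284, 293 and 302 FPKM with dexamethasone plus THSG, 313, 293 and 274 FPKM with dexamethasone, and 309.7, 288 and 284 FPKM with vehicle. Its log2 fold change against vehicle was -0.01 in both comparisons, with 95% intervals from -0.13 to 0.12 (dexamethasone plus THSG) and from -0.13 to 0.12 (dexamethasone). The value for dexamethasone was 0.14 after correction for GC content and transcript length and 0.04 with median-ratio scaling. Txnrd1 had 49.8, 45.9 and 44.9 FPKM with dexamethasone plus THSG, 44.5, 41.2 and 43.9 FPKM with dexamethasone, and 45.5, 42.4 and 43.5 FPKM with vehicle. The log2 fold change against vehicle was 0.10 (interval from -0.02 to 0.21) for dexamethasone plus THSG. For dexamethasone alone it was -0.02 (from -0.14 to 0.10), and 0.03 with median-ratio scaling.

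**Figure D2:**
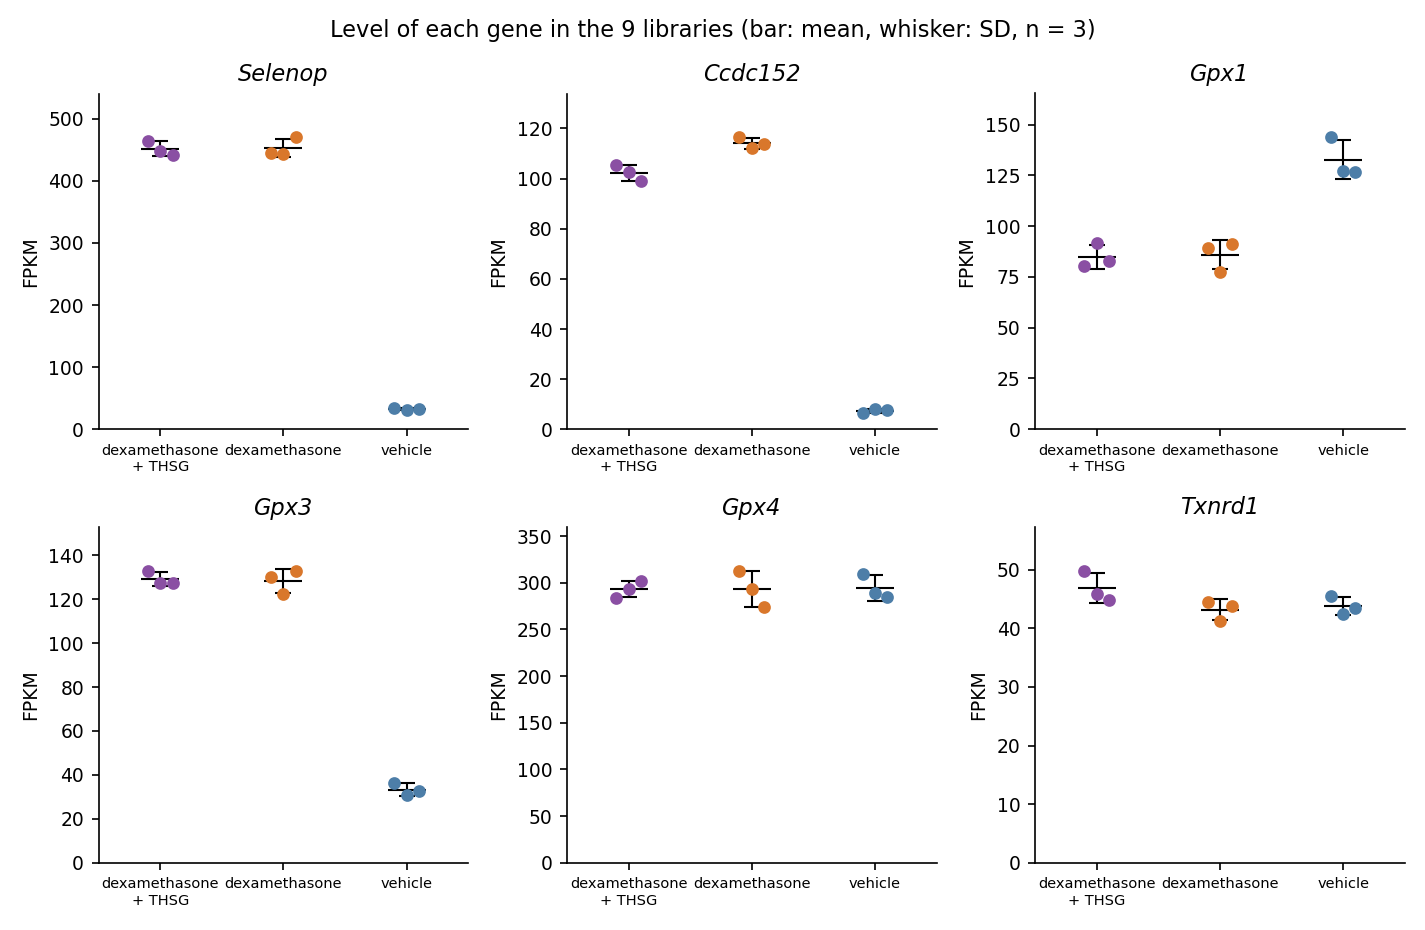
FPKM of the 6 genes (vertical axes from 0) in the libraries with dexamethasone plus THSG, dexamethasone and vehicle, 1 point per library, with the mean and SD of 3 libraries. Selenop, Ccdc152 and Gpx3 lie higher and Gpx1 lower in all 6 libraries with dexamethasone than in the 3 vehicle libraries, and in Gpx4 and Txnrd1 both groups with dexamethasone overlap with vehicle.

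Against vehicle, 4 of the 6 genes had groups that did not overlap in either comparison, 3 higher and 1 lower. Over all genes the share without overlap was 43.1% for dexamethasone plus THSG against vehicle (17.9% higher and 25.2% lower) and 45.9% for dexamethasone against vehicle (18% higher and 27.9% lower), and nothing is read from the count, since these comparisons share the vehicle libraries and were known when the genes were chosen.

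The order of levels changed between groups. Comparing genes with each other assumes that the values are FPKM, a unit inferred here, with transcript lengths that are not given. The same holds for the sums and shares of selenoprotein genes below. The bases shared by Selenop and Ccdc152 add to the uncertainty of both. With dexamethasone plus THSG and with dexamethasone alone, the order was Selenop, Gpx4, Gpx3, Ccdc152, Gpx1 and Txnrd1, and no neighbours in that order overlapped. With vehicle it was Gpx4, Gpx1, Txnrd1, then Gpx3 and Selenop, whose libraries overlapped, and Ccdc152. Among 20 measured selenoprotein genes Selenop ranked 1 in both groups with dexamethasone and 11 with vehicle.

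THSG added to dexamethasone was the comparison that did not serve to choose the genes. None of the 6 was called, and limma called 0 of 10716 genes (0%), with 777 (7.25%) at an unadjusted p under 0.05. The log2 fold change of dexamethasone plus THSG against dexamethasone was 0.00 for Selenop (95% interval from -0.12 to 0.11, adjusted p = 0.99), -0.02 for Gpx1 (from -0.18 to 0.14, adjusted p = 0.967), 0.01 for Gpx3 (from -0.12 to 0.14, adjusted p = 0.974) and 0.00 for Gpx4 (from -0.12 to 0.12, adjusted p = 1). The sign of these 4 values turned under some scalings or when single libraries were left out.

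Ccdc152 and Txnrd1 were the 2 members whose groups did not overlap with and without THSG, against 13.3% of all genes (8.41% higher and 4.84% lower). Ccdc152 was lower in all 3 libraries with THSG than in any with dexamethasone alone (log2 fold change -0.16, interval from -0.31 to -0.01, adjusted p = 0.683). Txnrd1 was higher in all 3 (0.12, interval from -0.0015 to 0.23, adjusted p = 0.687). Neither difference passed. Both kept their sign under each of the 20 other settings tried, but most of these could not turn it. With groups that do not overlap, leaving out a library or changing the pseudocount cannot turn the sign. The replicate block, the trend and the minimum mean leave the estimate itself unchanged. The kept sign is therefore no added evidence.

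The other selenoprotein genes were mostly lower under dexamethasone or not called. Of 19 that the genome holds beside the 5 selenoprotein genes above, 15 were in the table. Dio1, Dio3, Gpx2 and Selenov were absent from it. With dexamethasone plus THSG against vehicle, 6 of the 15 fell and 0 rose (median log2 fold change -0.13, and -0.04 over all genes), where 17% of all genes were called lower. With dexamethasone against vehicle, 6 of 15 fell and 0 rose (median -0.14, and -0.05 over all genes), where 20.9% of all genes were called lower. Quantile normalization also called 3 of the 15 higher with dexamethasone plus THSG. Over all genes the calls with dexamethasone plus THSG were 29.1%, made up of 1294 higher (12.1%) and 1826 lower, or 1563 and 1505 with median-ratio scaling. With dexamethasone they were 33.6%, made up of 1362 higher (12.7%) and 2239 lower, or 1739 and 1766 with that scaling.

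Selenof, which encodes a protein of the endoplasmic reticulum that binds the glycoprotein folding sensor, was among them. It had 126, 116 and 124 FPKM with dexamethasone plus THSG, 128, 124 and 133 with dexamethasone, and 174, 194 and 176 with vehicle. The libraries with dexamethasone lay below all vehicle libraries. Its log2 fold change against vehicle was -0.57 (SE 0.0524, adjusted p = 6.56e-06) for dexamethasone plus THSG and -0.50 (SE 0.0524, adjusted p = 1.86e-05) for dexamethasone. Selenoh, a small nucleolar protein gene, stood at 9.21 ± 1.4 FPKM with dexamethasone plus THSG and 8.44 ± 1.8 with dexamethasone, against 15.2 ± 1.6 with vehicle. It fell by 0.72 on the log2 scale with dexamethasone plus THSG (adjusted p = 0.0035) and by 0.85 with dexamethasone (adjusted p = 0.00103).

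Selenow, a small selenoprotein gene abundant in muscle, stood at 72.1 ± 3.2 FPKM with dexamethasone plus THSG and 63.7 ± 5.5 with dexamethasone, against 84.0 ± 4.3 with vehicle. It fell by 0.22 on the log2 scale with dexamethasone plus THSG (adjusted p = 0.0242) and by 0.40 with dexamethasone (adjusted p = 0.00054). The call for Selenow with dexamethasone plus THSG held in 17 of 21 settings. Selenom, of the endoplasmic reticulum, fell against vehicle with dexamethasone plus THSG (-0.23, called in 16 of 21 settings) and with dexamethasone (-0.24, called in 17 of 21). Msrb1, a methionine sulfoxide reductase gene, also fell with dexamethasone plus THSG (-0.22, called in 9 of 21 settings) and with dexamethasone (-0.21, called in 6 of 21). Selenon, whose human counterpart is mutated in congenital myopathies, was not called with THSG added (-0.16, adjusted p = 0.0508) and was called lower with dexamethasone alone (-0.28, adjusted p = 0.00255). For Selenok the reverse held (-0.26, adjusted p = 0.0099 with THSG added, and -0.14, adjusted p = 0.108 with dexamethasone alone). The difference between the comparisons is the comparison of THSG with dexamethasone, in which neither Selenon (adjusted p = 0.698) nor Selenok (adjusted p = 0.722) was called. The 8 genes called in neither comparison were Dio2, Selenoi, Selenoo, Selenos, Selenot, Sephs2, Txnrd2 and Txnrd3, with log2 fold changes between -0.14 and 0.31.

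**Figure D3:**
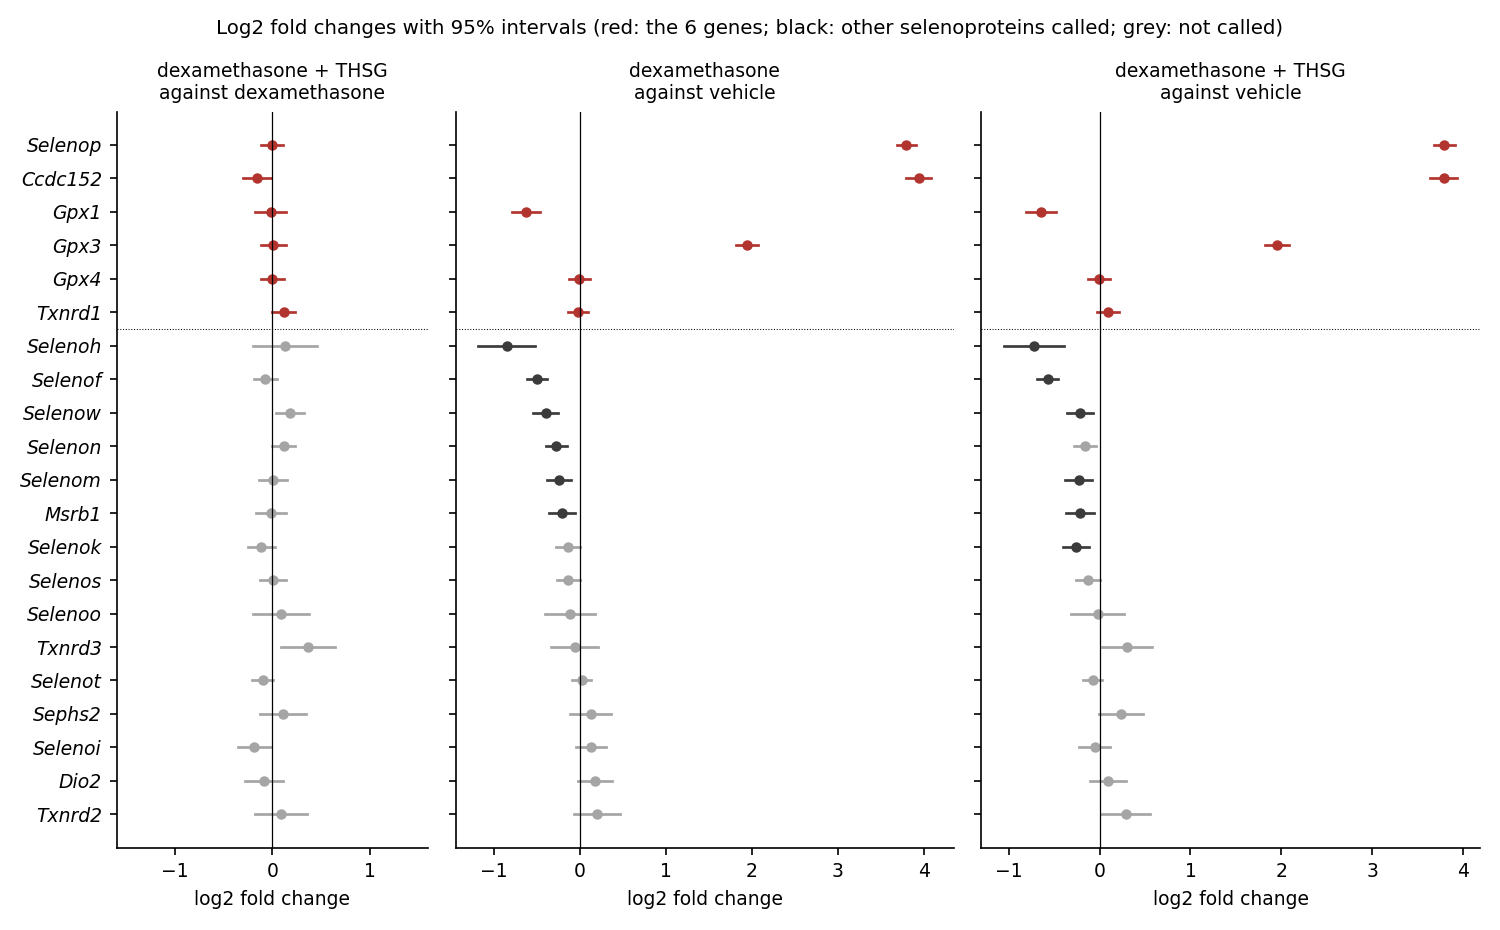
Log2 fold changes with 95% intervals (horizontal axes) of the 6 genes (red) and 15 other selenoprotein genes (black where called, grey where not) in the 3 comparisons. Against vehicle, Selenop and Ccdc152 lie between 3.78 and 3.94 and Gpx3 at 1.94 to 1.96, and 0 of the 15 other selenoprotein genes were called higher in this fit.

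Summed over the 20 measured selenoprotein genes, transcript levels were 1483 ± 24 FPKM with dexamethasone plus THSG, 1482 ± 33 with dexamethasone and 1118 ± 32 with vehicle. Without Selenop the sums were 1031 ± 17 FPKM with dexamethasone plus THSG, 1029 ± 26 with dexamethasone and 1085 ± 31 with vehicle. Without Selenop and Gpx3 they were 902 ± 16 FPKM with dexamethasone plus THSG and 901 ± 22 with dexamethasone, against 1052 ± 29 with vehicle. Selenop alone made up 30.4% ± 0.57 of the sum with dexamethasone plus THSG and 30.6% ± 0.77 with dexamethasone, against 2.91% ± 0.17 with vehicle. These are descriptions, since they rest on values that chose the genes. Each gene's FPKM was also multiplied by its number of annotated selenocysteine codons, which is 10 for Selenop, 2 for Dio2 and 1 for the other 18. The weighted sum was 5552 ± 127 with dexamethasone plus THSG and 5566 ± 156 with dexamethasone, against 1418 ± 40 with vehicle. Selenop carried 81.3% ± 0.41 of it with dexamethasone plus THSG and 81.4% ± 0.55 with dexamethasone, against 22.9% ± 1.1 with vehicle. The weighted sum counts codons in transcripts, and translation was not measured.

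**Figure D4:**
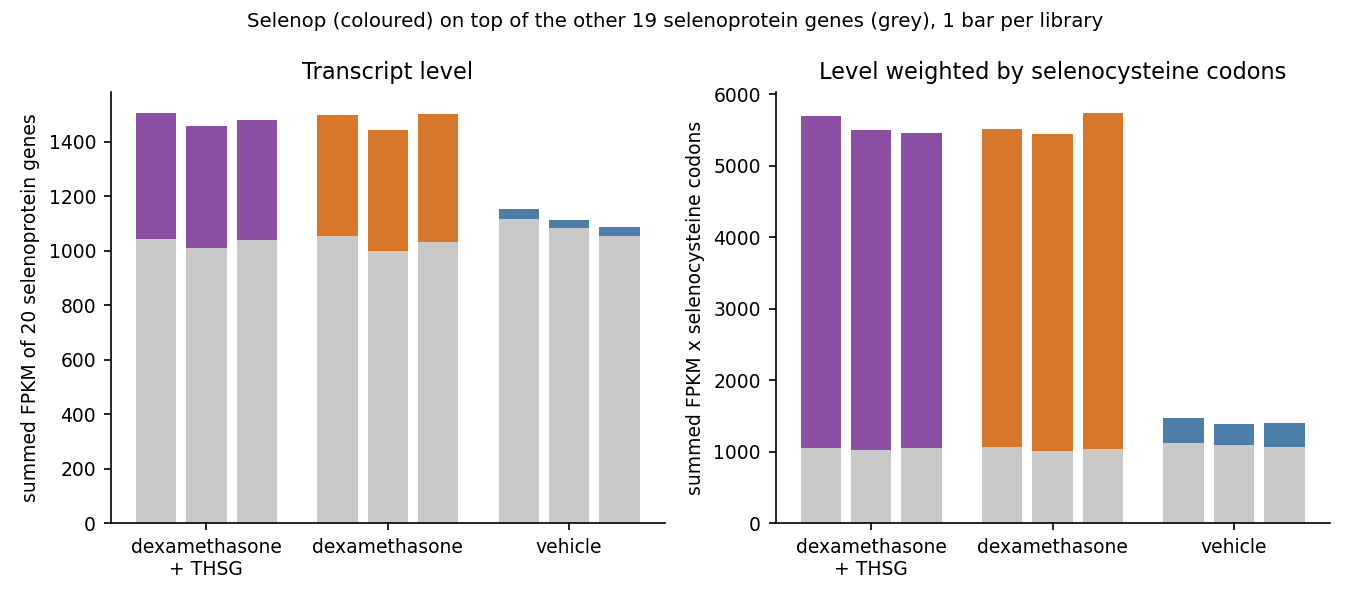
Summed FPKM of the 20 measured selenoprotein genes (left) and the same sum weighted by selenocysteine codons (right), 1 bar per library, with Selenop coloured on top of the other 19 genes in grey. On the left the grey part, which includes Gpx3, averages 1031 FPKM with dexamethasone plus THSG, 1029 with dexamethasone and 1085 with vehicle. The Selenop part makes up about 81% of the weighted sum in the 6 libraries with dexamethasone and about 23% with vehicle.

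A broad list of selenocysteine machinery genes was counted, which also holds genes of general translation and of selenocysteine breakdown. Of its 11 measured genes, 1 fell and 0 rose with dexamethasone plus THSG against vehicle, where 17% of all genes were called lower. The median log2 fold change was -0.08, and -0.04 over all genes. With dexamethasone 4 fell and 0 rose (median -0.14, and -0.05 over all genes), where 20.9% of all genes were called lower. The count for dexamethasone was 2 when quantile normalization or median-ratio scaling was used, and when any 1 of its 3 libraries was left out. Sars1, whose enzyme loads serine onto the selenocysteine tRNA, stood at 61.2 ± 1.5 FPKM with dexamethasone plus THSG and 60.0 ± 1.1 with dexamethasone, against 73.7 ± 2.9 with vehicle. It fell by 0.27 on the log2 scale with dexamethasone plus THSG (adjusted p = 0.000622) and by 0.30 with dexamethasone (adjusted p = 0.000272). Trnau1ap, which encodes a protein that binds this tRNA, fell with dexamethasone (-0.37, adjusted p = 0.00185). The others were Sephs1 (-0.29, adjusted p = 0.0396) and Scly, the gene of the lyase that recovers selenium from selenocysteine (-0.37, adjusted p = 0.0396). The SECIS-binding protein gene Secisbp2, the elongation factor gene Eefsec and the synthase gene Sepsecs were not called in any comparison.

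Of the lipoprotein receptor family through which cells take up Selenop protein, Lrp1, a broad endocytic receptor, was measured. Lrp8 and Lrp2 were absent from the deposited table. Lrp1 had 116, 131 and 126 FPKM with dexamethasone plus THSG, 124, 124 and 113 with dexamethasone, and 190.3, 175 and 187 with vehicle. All 6 libraries with dexamethasone lay below the vehicle libraries. Lrp1 fell by 0.56 on the log2 scale with dexamethasone plus THSG (SE 0.0574, adjusted p = 1.58e-05) and by 0.61 with dexamethasone (SE 0.0574, adjusted p = 7.19e-06).

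In liver cells, Selenop transcription is known to respond to FOXO factors, HNF-4alpha and the coactivator PGC-1alpha. Of these, Foxo3 rose, at 22.0 ± 1.1 FPKM with dexamethasone plus THSG and 21.6 ± 0.49 with dexamethasone against 12.8 ± 0.41 with vehicle. Its log2 fold change against vehicle was 0.77 with dexamethasone plus THSG (adjusted p = 1.03e-06) and 0.74 with dexamethasone (adjusted p = 1.39e-06). Foxo1 was not called with dexamethasone plus THSG (-0.17, adjusted p = 0.178) or dexamethasone (-0.20, adjusted p = 0.108), nor was Foxo4 with dexamethasone plus THSG (0.09, adjusted p = 0.412) or dexamethasone (0.21, adjusted p = 0.0559). The glucocorticoid receptor gene Nr3c1 fell by 0.36 on the log2 scale with dexamethasone plus THSG (adjusted p = 0.0108) and by 0.39 with dexamethasone (adjusted p = 0.00629). Hnf4a and Ppargc1a were absent from the deposited table.

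Genes that work beside the selenoenzymes were also counted. Over all genes, 17% were called lower and 12.1% higher with dexamethasone plus THSG against vehicle, and 20.9% lower and 12.7% higher with dexamethasone. Of 14 thioredoxin and peroxiredoxin genes, 3 fell and 1 rose with dexamethasone plus THSG against vehicle, and 5 fell and 1 rose with dexamethasone. As shares of the 14, those that fell were 21.4% with dexamethasone plus THSG and 35.7% with dexamethasone. Txn1, the thioredoxin that Txnrd1 reduces, stood at 121 ± 2.7 FPKM with dexamethasone plus THSG and 112 ± 5.6 with dexamethasone, against 133 ± 8.2 with vehicle, and fell with dexamethasone (log2 fold change -0.24, adjusted p = 0.00464). Of 11 glutathione synthesis and recycling genes, 3 fell and 1 rose with dexamethasone plus THSG, and 4 fell and 1 rose with dexamethasone. Those that fell were 27.3% of the 11 with dexamethasone plus THSG and 36.4% with dexamethasone. The glutaredoxin gene Glrx was the one that rose, with a log2 fold change of 0.87 with dexamethasone plus THSG and 0.93 with dexamethasone. Chac1, a glutathione-degrading enzyme gene, was among those that fell (-1.18 with dexamethasone plus THSG and -1.28 with dexamethasone). Gpx8, a peroxidase of the endoplasmic reticulum with cysteine in place of selenocysteine, fell by 0.42 on the log2 scale with dexamethasone plus THSG (adjusted p = 0.00222) and by 0.41 with dexamethasone (adjusted p = 0.00264). Txnrd1 is a target of the antioxidant factor NRF2. Of 19 other NRF2 targets, 9 fell and 2 rose with dexamethasone plus THSG, and 11 fell and 2 rose with dexamethasone. The glutathione transferase gene Gstm1 was among those that rose (1.48 with dexamethasone plus THSG and 1.28 with dexamethasone). Those that fell included Tkt (-0.75 with dexamethasone plus THSG and -0.80 with dexamethasone), Nqo1 (-0.70 and -0.63) and G6pdx (-0.40 and -0.58). Some of the 19 are also in the lists above, so Slc7a11 and Srxn1 are counted in both among those that fell with dexamethasone. Over the settings, 8 to 11 fell in either comparison. Those that rose were 2 to 4 with dexamethasone plus THSG and 1 to 3 with dexamethasone. The NRF2 targets that fell were 47.4% of the 19 with dexamethasone plus THSG and 57.9% with dexamethasone. In the comparison of THSG with dexamethasone, 0 genes of all these lists were called.

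Liver, adipose tissue and macrophages also make Selenop, so their markers were counted. None of 10 hepatocyte and none of 8 macrophage markers was in the table, which lists only genes above 1 FPKM in every library, and a gene can be absent for reasons not stated. Of 8 adipocyte markers 3 were listed, Cebpa, Lipe and Pparg, and the defining marker Adipoq was not. Their summed level was 32.8 to 35.1 FPKM with dexamethasone plus THSG, 30.8 to 31.8 with dexamethasone and 9.70 to 12.3 with vehicle. Cebpa, a transcription factor gene, accounted for most of it and rose against vehicle. Its log2 fold change was 2.20 with dexamethasone plus THSG (adjusted p = 1.85e-08) and 2.08 with dexamethasone (adjusted p = 2.9e-08). Over all genes, 12.1% were called higher with dexamethasone plus THSG and 12.7% with dexamethasone. Lipe was not called with dexamethasone plus THSG (0.08, adjusted p = 0.808) or with dexamethasone (0.07, adjusted p = 0.821). Neither was Pparg (0.45, adjusted p = 0.0514, and 0.22, adjusted p = 0.308). The part of these genes in the levels of Selenop was not tested, and in bulk RNA fewer cells of a type and less RNA per cell cannot be told apart.

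The 5 genes whose levels over the 9 libraries were nearest to those of Selenop were found by Euclidean distance between log2 values centred on each gene's mean. They were the glucocorticoid response gene Fkbp5 (distance 0.169), Ccdc152 (0.396), the metallothionein gene Mt2 (0.403), the pyruvate dehydrogenase kinase gene Pdk4 (0.532) and Ifi207 (1.05). Nearest to Gpx3 were Slc43a1 (0.216), Gda (0.229), Thbs2 (0.242), the glutamine synthetase gene Glul (0.246) and Ampd3 (0.307). These distances describe 9 libraries that fall into 2 sets, with and without dexamethasone.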

How the data were processed

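RNA was sequenced from 9 libraries of C2C12 myotubes. The cell line field of the labels counts up from C2C12 over the samples, while every title gives C2C12, and the titles were followed. Per the submitters' processing notes, reads were handled with STAR 2.7.10a and featureCounts on the mouse build GRCm39 (mm39). The authors deposited a table named as counts, but its values are fractional and all above 1, so they were taken to be FPKM; no header or label states the unit, and the lengths, strand setting and filter used are not given in the sources used here. Depth could not be recovered.

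With R 4.3.3, limma 3.58.1 was fitted to log2(FPKM + 0.1), giving each group its mean over all 9 libraries, with an intensity trend and two-sided tests adjusted by Benjamini-Hochberg over 10716 genes at a threshold of 0.05. Intervals cover 95%. Simulated data were used to check the fit. List genes were matched by Ensembl identifier through GENCODE M21 (GRCm38), which held 10670 of the identifiers, and Sars1 by symbol. Sequences and overlaps come from that build, earlier than the authors' build. The 6 genes and all lists were chosen with earlier results of these data known. Named genes were the 6, called genes of the lists (for selenoproteins, receptors and regulators also those not called), the next 5 protein-coding genes on either side and the 5 nearest in level to Selenop and to Gpx3. Alternatives covered the pseudocount, scaling, a minimum mean of 5 FPKM, a replicate block, no trend, the 2 groups on their own, correction for GC content and length, and leaving out each library.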

Additional observations from a re-analysis of the deposited data

How the results depend on the processing

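Against vehicle, log2 fold changes under the 20 other settings spanned 3.74 to 3.84 for Selenop and 3.63 to 4.01 for Ccdc152. They spanned 1.89 to 2.02 for Gpx3 and -0.70 to -0.53 for Gpx1. These 4 genes do not overlap with vehicle, so leaving out a library or changing the pseudocount could not turn their sign. The ranges are descriptions, since these comparisons chose the genes. Ccdc152 moved to 3.79 for dexamethasone and 3.63 for dexamethasone plus THSG with a pseudocount of 1, and to 3.81 for dexamethasone after correction for GC content and length, with or without the replicate block. Gpx4 turned to 0.14 for dexamethasone under that correction, with or without the block. For dexamethasone plus THSG against dexamethasone, values near 0 turned sign. Selenop was 0.0295 after the GC content and length correction, also with the block, and -0.0258 to 0.0222 with single libraries left out, and Gpx1 was -0.0889 to 0.0254 with single libraries left out. Gpx3 was -0.0029 with median-ratio scaling, -0.0054 with equal sums, -0.0251 with quantile normalization, -0.0354 after the correction with or without the block, and -0.0234 to 0.0352 with single libraries left out. Gpx4 was -0.0136, -0.0161, -0.0342 and -0.0981 under the same settings, again -0.0981 with the block, and -0.0485 to 0.0476 with single libraries left out. None of the 6 genes passed in this comparison under any of the 20 settings, and the smallest adjusted p was 0.414, for Ccdc152.

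The count of all genes called with THSG added was 1 with the replicate block, 1 with the block and the correction together, and 0 to 1 with single libraries left out (1 without dexamethasone replicate 3). The count of selenocysteine machinery genes called for dexamethasone was 2 with quantile normalization or median-ratio scaling, and 2 to 4 with single libraries left out. For dexamethasone plus THSG against vehicle it was 2 with a minimum mean of 5 FPKM, with only the 2 groups compared and after the GC content and length correction, with or without the block, and 1 to 2 with single libraries left out. Other selenoproteins called in that comparison were 3 without an intensity trend and 3 to 7 with single libraries left out (3, all lower, without dexamethasone plus THSG replicate 2, and 3 lower and 1 higher without vehicle replicate 1). Quantile normalization called 5 lower and 3 higher there. The causes were not tested. Replicate numbers gave no sign of pairing: deviations of libraries with the same number correlated with r between -0.09 and 0.11, and 4 of 18 library comparisons were best with the same number. With 3 libraries per group these values cannot settle whether libraries were paired. The block moved the genes called for dexamethasone to 3518 and for dexamethasone plus THSG against vehicle to 3003. The unknown depth leaves counting error unmeasured.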

Other observations

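The position of the selenocysteine codon was set beside the calls after the values were seen, so the split was not tested. Among the 15 other selenoprotein genes measured, 6 have their first selenocysteine codon at most 10 codons before the end of the coding sequence (Selenoi, Selenok, Selenoo, Selenos, Txnrd2 and Txnrd3) and 9 have it further inside. With dexamethasone against vehicle, 0 of the 6 and 6 of the 9 were called lower, with median log2 fold changes of -0.09 and -0.24, where 20.9% of all genes were called lower and their median was -0.05. With dexamethasone plus THSG against vehicle, 1 of the 6, Selenok, and 5 of the 9 were called lower, with medians of -0.04 and -0.22, where 17% of all genes were called lower and their median was -0.04. Of the enzymes described above, Txnrd1 has its codon at the end, and Gpx1, Gpx3 and Gpx4 have it further inside, with Gpx3 higher under dexamethasone. Both comparisons use the same vehicle libraries.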
